A study of Mus musculus with 18 samples.

Results

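The results describe 10 mouse genes of the cell surface link between muscle cells and their matrix, out of 50689 features in the count table. They were chosen by name: the integrin subunits Itga5, Itga6, Itga7, Itgav and Itgb1, the integrin partner Itgb1bp2, and Dag1, Dmd, Sgca and Sgcd of the dystrophin and dystroglycan complex. All 10 were found in the table by their mouse Ensembl identifiers. RNA was sequenced from proliferating satellite cells, which are muscle stem cells, taken from the tibialis anterior of C57BL6 mice and cultured on matrigel, a matrix rich in laminin. There were 9 scKO libraries and 9 control libraries. The scKO genotype is Pax7-CreERT2/+;Hoxa10f/f, with a tamoxifen-inducible Cre expressed from Pax7, and this group was treated with 4-hydroxytamoxifen at 1 µM for 2 days. The control genotype is Hoxa10f/f, so every library carries Hoxa10 alleles with Cre target sites. No Cre and no tamoxifen are given in the labels for the controls, so genotype, Cre and drug cannot be told apart. The labels give no ages. They do not say whether each library is its own animal or culture, and p-values therefore cover only the spread between these libraries, which may be technical.

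Integrins are receptors made of an alpha and a beta subunit that bind matrix proteins outside the cell and the actin cytoskeleton inside it. The dystrophin complex makes a second bridge, in which dystroglycan binds laminin, dystrophin binds actin, and the sarcoglycans lie beside dystroglycan in the membrane. Satellite cells and their progeny are known for a laminin-binding integrin of the alpha 7 and beta 1 subunits, and muscle fibres use this integrin and the dystrophin complex side by side to stay attached to the basal lamina.

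Hoxa10, the targeted gene, had 1.89 to 10.02 CPM in scKO libraries (median 3.56), against 14.9 to 64.7 CPM in control libraries (median 36.7), with no overlap. CPM is the depth-scaled count of unique molecular identifiers (UMIs), with library totals adjusted by the TMM method. Library totals ran from 420197 to 5986128 counts. scKO 6, 7 and 9 and control 1 and 2, with totals over 2000000, are called deep, and the other 13 libraries shallow. These classes come from the data, and each holds libraries of both genotypes. No count exceeded 4096, and the highest count of each shallow library was 3956 to 4096. Abundant genes are therefore held down, most strongly in deep libraries, and levels are compared within a class only. scKO 1 and control 7, 8 and 9 lay together, away from the remaining shallow libraries, on the second principal component (21.1 to 31.6 against -23.0 to -11.8), and results that rest on them are given with and without them. Myogenic markers, among them Pax7, Myod1, Myf5 and Des, exceeded the count floor over all libraries together for 11 of 11 genes. Endothelial, leukocyte and Schwann cell markers did so for 6 of 6 genes each, so this count does not identify the cells. In shallow controls the 11 myogenic genes summed to 7726 to 11245 CPM. Endothelial markers summed there to 5.82 to 54.1 CPM and tendon markers to 133 to 486 CPM.

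The promoters of Dmd, Dag1 and Sgca, the dystrophin complex genes called higher in deep scKO libraries, are shown because the results turn on these genes. Each window holds 250 bases before and 50 bases after an annotated start, from RefSeq on GRCm38.p6, read 5′ to 3′ on the gene's strand. Capitals mark E-boxes (CANNTG), the motif bound by MyoD and related factors.
Dmd at the first start, chrX:82948620-82948919, plus strand: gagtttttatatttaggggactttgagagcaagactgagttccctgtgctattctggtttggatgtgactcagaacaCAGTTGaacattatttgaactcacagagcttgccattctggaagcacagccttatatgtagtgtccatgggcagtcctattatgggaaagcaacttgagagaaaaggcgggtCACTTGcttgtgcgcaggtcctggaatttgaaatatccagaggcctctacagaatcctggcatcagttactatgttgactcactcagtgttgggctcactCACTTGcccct
Dmd at an internal start, chrX:85048045-85048344, plus strand: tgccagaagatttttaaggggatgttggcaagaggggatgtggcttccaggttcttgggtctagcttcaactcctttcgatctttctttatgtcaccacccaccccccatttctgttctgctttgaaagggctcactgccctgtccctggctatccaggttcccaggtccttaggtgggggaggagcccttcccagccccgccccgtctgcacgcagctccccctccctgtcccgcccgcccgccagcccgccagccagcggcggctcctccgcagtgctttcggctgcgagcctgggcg
Dag1, chr9:108263909-108264208, minus strand: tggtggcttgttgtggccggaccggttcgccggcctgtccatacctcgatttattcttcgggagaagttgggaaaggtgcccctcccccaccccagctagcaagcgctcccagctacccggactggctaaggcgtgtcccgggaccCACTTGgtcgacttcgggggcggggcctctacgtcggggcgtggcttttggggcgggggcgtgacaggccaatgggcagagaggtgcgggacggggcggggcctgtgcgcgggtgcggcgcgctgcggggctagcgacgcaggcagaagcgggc
Sgca, chr11:94976278-94976577, minus strand: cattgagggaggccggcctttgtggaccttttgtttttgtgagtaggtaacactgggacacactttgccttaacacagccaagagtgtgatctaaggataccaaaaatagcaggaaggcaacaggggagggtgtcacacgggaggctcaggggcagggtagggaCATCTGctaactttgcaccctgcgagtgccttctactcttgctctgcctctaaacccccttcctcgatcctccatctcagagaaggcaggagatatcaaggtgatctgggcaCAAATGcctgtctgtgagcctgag

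The window at the first Dmd start held 3 E-boxes, 1 MEF2 motif, 1 CArG box and 1 TATAAA, while the window at the internal start held none of these and 3 matches to GGGCGG. The Dag1 window shown had 1 E-box and 3 matches to GGGCGG, and a second Dag1 window, chr9:108263766-108264065, which overlaps it and is not printed, had 1 and 4. Sgca had 2 E-boxes and no GGGCGG. All motifs were searched on both strands. Among 32851 promoter windows of the same length, an E-box was present in 72.3%, GGGCGG in 35.7%, TATAAA in 13.6%, the MEF2 motif in 3.19% and the CArG box in 1.63%. E-boxes at this share set no member apart, and a match is a description of the letters only. Windows were found for 7 of the 10 genes, with Itga6, Itga7 and Itgb1bp2 not among them. The windows of Itgav and Itgb1 held no E-box.

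Levels of the members in control cells differed widely. Per kilobase of exon, Itga7, the laminin-binding alpha subunit of muscle, was the most abundant in the 7 shallow control libraries, at 248 ± 93.7 CPM per kb (SD). Itgb1, the beta subunit shared by many integrins, followed with 149 ± 28.2 CPM per kb and overlapped it. Itgb1bp2, known as melusin, a muscle protein that binds the beta 1 tail, had 63.1 ± 20.4 CPM per kb. Itgav, Dag1 and Itga6 lay close together, at 24.95 ± 8.99, 23.5 ± 2.19 and 23.3 ± 3.02 CPM per kb, and could not be ordered beyond their spread. Sgca had 8.38 ± 2.67, Itga5 2.52 ± 1.26, Dmd 1.18 ± 0.672 and Sgcd 0.453 ± 0.182 CPM per kb, of which Itga5 overlapped Dmd and Dmd overlapped Sgcd. In the 2 deep controls Itgb1 led, with 102 ± 9.21 CPM per kb, ahead of Itga7 with 51.1 ± 9.12 CPM per kb. Itga7 and Itgb1 counts there, 2519 to 3317, lie near the ceiling of 4096; corrected for UMI collisions, Itgb1 had 138 ± 11.8 CPM per kb and Itga7 66.5 ± 6.63 CPM per kb. The library kit is not given in the sources used here, and if reads cover only an end of each transcript, levels per length do not order the genes.

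The comparison of scKO with control asks how the transcripts of proliferating satellite cells differ after targeting of Hoxa10. In deep libraries, 4 of the 10 members were higher in scKO (Dmd, Itgb1bp2, Sgca and Dag1) and 1 was lower (Itga6), by the edgeR quasi-likelihood test with Benjamini-Hochberg adjustment over all 13136 genes tested and a threshold of 0.05. Differences are log2 ratios of scKO over control as edgeR estimated them. Over all those genes 14.3% passed, 7.31% higher and 7.03% lower. An unadjusted p under 0.05 was found for 6 of 10 members, where 29.4% of all genes had one. With counts corrected for UMI collisions the number of members called was again 5, where 16.1% of all genes passed and 8.18% were higher in scKO. In shallow libraries 0 of the 7 members tested passed, where 0.0434% of all 6906 genes did (0.029% higher, 0.0145% lower). Only Dag1 of these had an unadjusted p under 0.05, as 6.15% of all genes did. With all 18 libraries and the depth class as a covariate, 0 of 8 members passed, where 0.679% of 7662 genes did (0.326% higher, 0.352% lower). Dag1 and Dmd had an unadjusted p under 0.05, as 11.9% of all genes did, DESeq2 called Dag1 and limma-voom called Dmd. In shallow libraries DESeq2 called 0 members. The edgeR test of the difference of the scKO effect between deep and shallow libraries called 0 of 8 members and 0% of all genes, with Dmd alone of the members at an unadjusted p under 0.05 (6.17% of all genes were), so the results of the classes are not shown to differ. In these bulk samples, fewer cells of a type and less RNA per cell cannot be told apart.

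**Figure D1:**
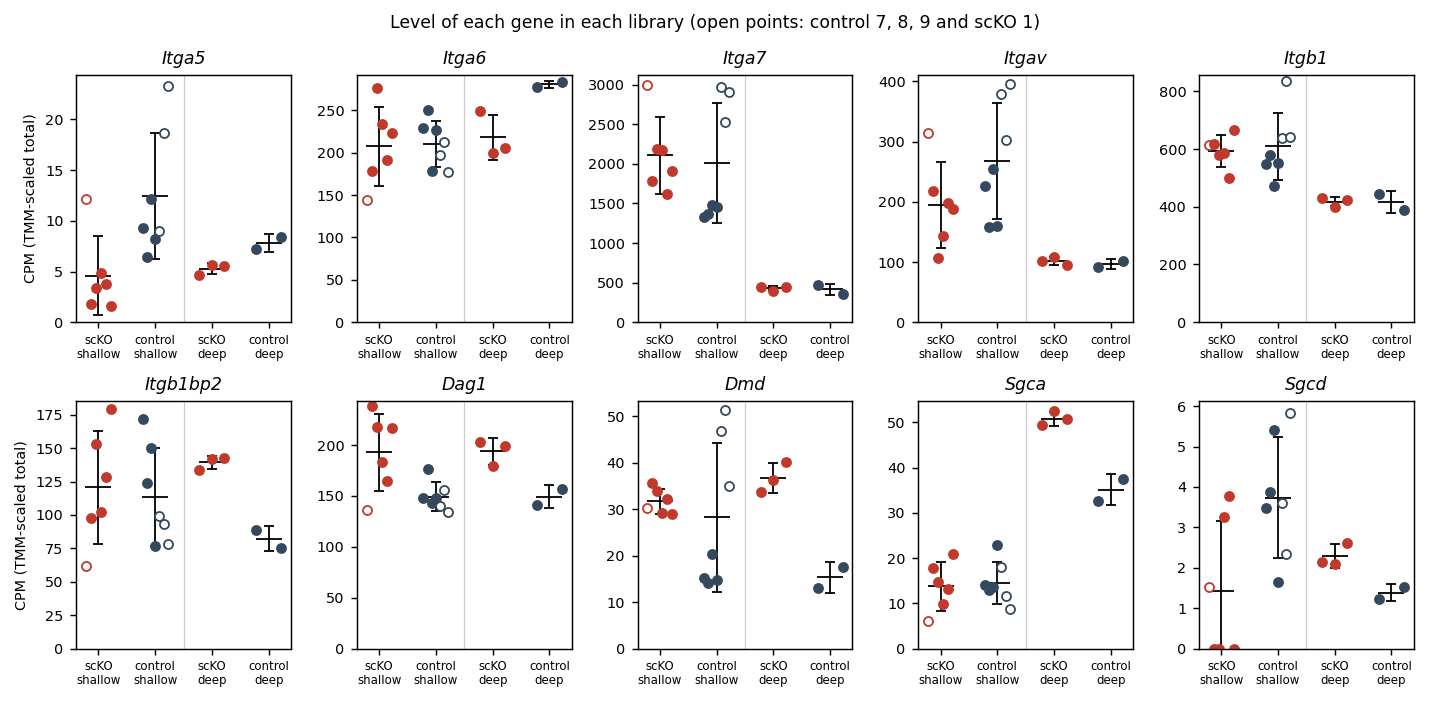
Level of each of the 10 genes in each library, in CPM on TMM-scaled totals, with the mean and SD of each group as bars; open points are scKO 1 and control 7, 8 and 9. Dmd, Itgb1bp2, Sgca, Dag1 and the scarce Sgcd lie higher in all 3 deep scKO libraries than in both deep controls, as did 24.1% of all genes tested. Itga5 and Itga6 lie lower in all 3, as did 21% of all genes tested. The 3 controls with open points have 35.0 to 51.3 CPM of Dmd, against 14.2 to 20.3 CPM in the other shallow controls.

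Among the dystrophin complex members, Dmd (chrX:82948870-85206141, plus strand, GRCm38 with GENCODE M21), which encodes dystrophin, the actin-binding link of the complex, had the largest log2 ratio of the 10 genes in deep libraries. It had 33.7, 36.2 and 40.0 CPM in deep scKO 6, 7 and 9, against 12.998 and 17.6 CPM in deep control 1 and 2. Every deep scKO library lay above every deep control, as did 24.1% of all genes tested, and the log2 ratio was 1.22 (SE 0.16; edgeR adjusted p = 0.000477). In shallow libraries Dmd ran from 28.9 to 35.6 CPM in scKO (median 31.2), against 14.2 to 51.3 CPM in control (median 20.3). All 6 shallow scKO libraries lay above the control mean of 28.2 CPM, yet the groups overlapped in that control 7, 8 and 9 had 46.8, 51.3 and 35.0 CPM, the first 2 above every shallow scKO library and the third above all but scKO 2. The shallow log2 ratio was 0.24 (SE 0.30; edgeR adjusted p = 0.890), from 17 to 30 counts per library in scKO and 9 to 26 in control. Over all 18 libraries, with depth class in the model, it was 0.72 (SE 0.23; edgeR adjusted p = 0.145).

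Outside the deep class, the Dmd result depended on the libraries that stood apart. Without scKO 1 and control 7, 8 and 9, an alternative chosen after seeing the data, the 5 remaining shallow scKO libraries had 28.9 to 35.6 CPM, against 14.2 to 20.3 CPM in the 4 remaining controls, with no overlap; 1.41% of all genes tested there had every scKO library above every control. The shallow log2 ratio was then 0.98 (SE 0.25; edgeR adjusted p = 0.179). In the model of all libraries with the depth class, leaving out these 4 gave 1.15 (edgeR adjusted p = 3.48e-05), where 7.29% of all genes passed and 3.2% were higher in scKO. Leaving out control 7 alone gave 0.87 (edgeR adjusted p = 0.0390) and control 8 alone 0.86 (edgeR adjusted p = 0.0442). Counts are per gene, so full-length dystrophin and the shorter products of internal Dmd starts cannot be told apart.

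Dag1 (chr9:108204634-108263958, minus strand), which encodes the precursor of alpha- and beta-dystroglycan, had similar log2 ratios in both classes but passed the test in deep libraries only. Its levels were 203, 179 and 199 CPM in deep scKO 6, 7 and 9, against 142 and 157 CPM in deep control 1 and 2. These do not overlap, where 24.1% of all genes tested had every scKO library above every control. The log2 ratio of Dag1 was 0.36 (SE 0.10; edgeR adjusted p = 0.0261). Shallow scKO libraries ran from 136 to 238 CPM (median 199.9), against 134 to 177 CPM in shallow controls (median 148). The groups overlapped, 5 of 6 scKO libraries lay above the control mean, and the shallow log2 ratio was 0.35 (SE 0.15; unadjusted p = 0.0313, edgeR adjusted p = 0.7996). Over all libraries with the depth class it was 0.37 (SE 0.11; edgeR adjusted p = 0.131). Dag1 passed in that model with DESeq2 (adjusted p = 0.00512), without scKO 1 (edgeR adjusted p = 0.0279) and without the 4 libraries that stood apart (edgeR adjusted p = 0.0159). The deep call was lost without control 1, scKO 6 or scKO 9, with log2 ratios of 0.27, 0.33 and 0.33 (edgeR adjusted p = 0.109, 0.0678 and 0.0864). Leaving out a deep control sets 3 scKO libraries against 1 control, so the spread then comes from the scKO libraries alone and the lone control is assumed to vary like them, here and for the genes below.

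Sgca (chr11:94962791-94976327, minus strand) encodes alpha-sarcoglycan, a sarcoglycan of striated muscle. It had 49.3, 52.4 and 50.7 CPM in deep scKO 6, 7 and 9, against 32.7 and 37.6 CPM in deep control 1 and 2. These do not overlap, where 24.1% of all genes tested had every scKO library above every control. The log2 ratio of Sgca was 0.51 (SE 0.11; edgeR adjusted p = 0.00938). That call was lost without control 1, which leaves 1 deep control, or scKO 7, with log2 ratios of 0.41 and 0.49 (edgeR adjusted p = 0.0724 and 0.0513). Shallow libraries held only 4 to 13 Sgca counts each in scKO, 53 in all, and 3 to 14 in control, 64 in all, too few to pass the count filter. Shallow levels were 13.7 ± 5.35 CPM in scKO (SD, n = 6) and 14.5 ± 4.64 CPM in control (SD, n = 7) and overlapped. Sgcd (chr11:46896253-47988969, minus strand), delta-sarcoglycan, was near the limit of detection. Deep scKO 6, 7 and 9 held 16, 17 and 19 counts, against 7 and 13 in deep control 1 and 2 (2.14, 2.09 and 2.62 CPM against 1.23 and 1.53 CPM; log2 ratio 0.68, SE 0.38; edgeR adjusted p = 0.259). Shallow libraries held 0 to 2 Sgcd counts each in scKO, 5 in all, and 1 to 4 in control, 16 in all, while the floor of 3 counts stood at 3.10 to 7.14 CPM in that class (on unscaled totals).

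**Figure D2:**
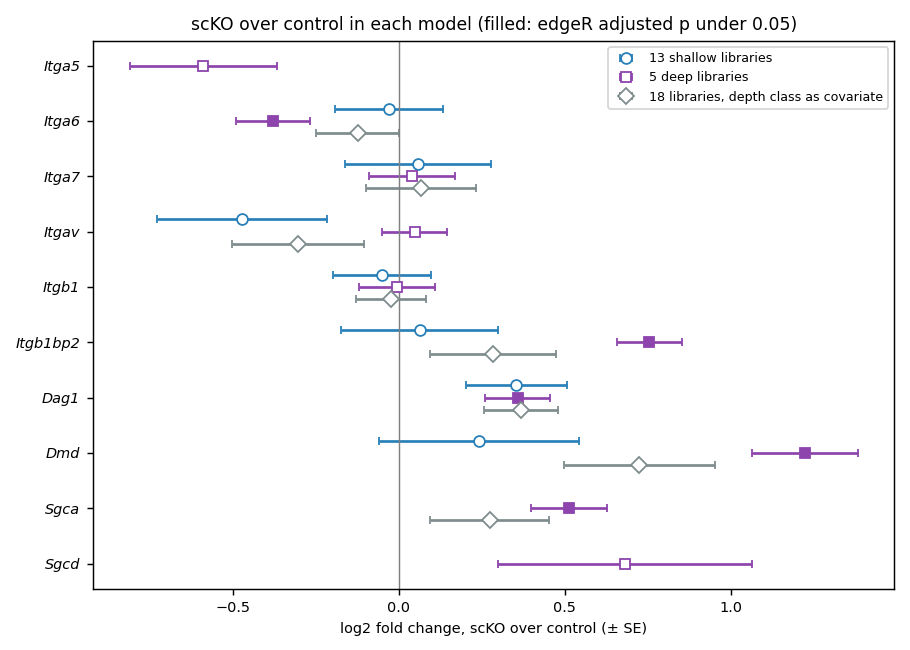
Log2 ratio of scKO over control for each gene, with its SE, within the 13 shallow libraries, within the 5 deep libraries and over all 18 with the depth class as a covariate; filled points passed edgeR at an adjusted p of 0.05 and untested genes are left out. Filled points occur in the deep libraries only, at 1.22 for Dmd, 0.75 for Itgb1bp2, 0.51 for Sgca, 0.36 for Dag1 and -0.38 for Itga6.

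Of the integrin subunits, Itga6 (chr2:71745616-71858416, plus strand), a laminin-binding alpha subunit, was lower in deep scKO libraries. It had 249, 200.1 and 206 CPM in deep scKO 6, 7 and 9, against 278 and 284 CPM in deep control 1 and 2, with no overlap, where 21% of all genes tested had every scKO library below every control. The log2 ratio was -0.38 (SE 0.11; edgeR adjusted p = 0.0351), and the call was lost without control 2, which leaves 1 deep control, scKO 7 or scKO 9, with log2 ratios of -0.36, -0.32 and -0.34 (edgeR adjusted p = 0.0508, 0.183 and 0.143). Shallow levels overlapped, at 144 to 276 CPM in scKO (median 207) and 178 to 250 CPM in control (median 212), with a log2 ratio of -0.03 (SE 0.16; edgeR adjusted p = 0.980).

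Itga7 (chr10:128933818-128958282, plus strand) and Itgb1 (chr8:128685654-128733200, plus strand), which form the main laminin receptor of muscle, did not pass in any of these models. In deep libraries Itga7 had 443, 400.4 and 444 CPM in scKO 6, 7 and 9, against 465.98 and 362 CPM in control 1 and 2, and the ceiling limits what these values can show. Corrected for UMI collisions, these libraries had 677, 592 and 652 CPM in scKO, against 576 and 500.4 CPM in control, which do not overlap, with a log2 ratio of 0.25 (SE 0.10; edgeR adjusted p = 0.127). On counts as deposited, 24.1% of all genes tested had every deep scKO library above every deep control. In shallow libraries Itga7 ran from 1618 to 2995 CPM in scKO (median 2039), against 1335 to 2973 CPM in control (median 1480; log2 ratio 0.06, SE 0.22; edgeR adjusted p = 0.968). The highest shallow values were those of scKO 1 and of control 7, 8 and 9, at 2524 to 2995 CPM, above the 1335 to 2192 CPM of the other 9 shallow libraries. Without those 4, the remaining shallow groups did not overlap, at 1618 to 2192 CPM in scKO and 1335 to 1480 CPM in control (log2 ratio 0.45, SE 0.12; unadjusted p = 0.00109, edgeR adjusted p = 0.213). Among all genes tested there, 1.41% had every scKO library above every control. Itgb1 ran from 499.7 to 665 CPM in shallow scKO and 472 to 835 CPM in shallow control (log2 ratio -0.05, SE 0.15; edgeR adjusted p = 0.956). In deep libraries Itgb1 averaged 418 ± 16.8 CPM in scKO (SD, n = 3) and 416 ± 37.6 CPM in control (SD, n = 2), a log2 ratio of -0.01 (SE 0.12; edgeR adjusted p = 0.983) that became 0.10 with counts corrected for UMI collisions.

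Itgav (chr2:83724397-83806916, plus strand), the alpha subunit of vitronectin and fibronectin receptors, had 106 to 315 CPM in shallow scKO (median 193), against 157 to 396 CPM in shallow control (median 254). The groups overlapped, 1 of 6 scKO libraries lay above the control mean, and the log2 ratio was -0.47 (SE 0.26; edgeR adjusted p = 0.822). Leaving out scKO 1 and control 7, 8 and 9 gave -0.24 (SE 0.20; edgeR adjusted p = 0.761), with 106 to 219 CPM in scKO and 157 to 254 CPM in control. Deep Itgav levels were 101 ± 6.42 CPM in scKO (SD, n = 3) and 96.9 ± 7.86 CPM in control (SD, n = 2; log2 ratio 0.05, SE 0.10; edgeR adjusted p = 0.791). Itga5 (chr15:103344286-103366763, minus strand), the alpha subunit of the main fibronectin receptor, was scarce. Its deep levels were 4.68, 5.66 and 5.52 CPM in scKO 6, 7 and 9, from 35, 46 and 40 counts, against 7.20 and 8.45 CPM in control 1 and 2, from 41 and 72 counts. These did not overlap, where 21% of all genes tested had every deep scKO library below every deep control. The Itga5 log2 ratio of -0.59 (SE 0.22) missed the threshold (edgeR adjusted p = 0.0933). In shallow libraries Itga5 had 1 to 8 counts each in scKO, 18 in all, and 5 to 9 in control, 48 in all, under the count filter. The shallow levels were 1.60 to 12.1 CPM in scKO (median 3.58) and 6.45 to 23.3 CPM in control (median 9.31). Without the 4 libraries that stood apart, the 5 scKO libraries had 1.60 to 4.87 CPM, against 6.45 to 12.2 CPM in the 4 controls, with no overlap; 1.24% of all genes tested there had every scKO library below every control. With no count filter, the model with the depth class called Itga5 lower, with a log2 ratio of -0.83 (edgeR adjusted p = 0.0453).

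Itgb1bp2 (chrX:101449088-101453541, plus strand), the muscle partner of the beta 1 tail, was higher in deep scKO libraries. It had 133, 142 and 142 CPM in deep scKO 6, 7 and 9, against 88.7 and 75.6 CPM in deep control 1 and 2. These do not overlap, where 24.1% of all genes tested had every scKO library above every control. The log2 ratio of Itgb1bp2 was 0.75 (SE 0.10; edgeR adjusted p = 0.000477). Its call and that of Dmd were kept without each scKO library in turn, with log2 ratios of 0.73 to 0.79 for Itgb1bp2 and 1.15 to 1.28 for Dmd. They were also kept against a lone control, at 0.64 and 0.85 for Itgb1bp2 and 1.03 and 1.48 for Dmd. Shallow levels were 62.1 to 179.6 CPM in scKO (median 115) and 77.1 to 172 CPM in control (median 98.9), with a log2 ratio of 0.06 (SE 0.24; edgeR adjusted p = 0.967). The difference between the classes, 0.70 (SE 0.38), did not pass (edgeR adjusted p = 0.876), nor did that of Sgca, 0.65 (SE 0.34; edgeR adjusted p = 0.848), or Dmd, 0.96 (SE 0.40; edgeR adjusted p = 0.729).

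**Figure D3:**
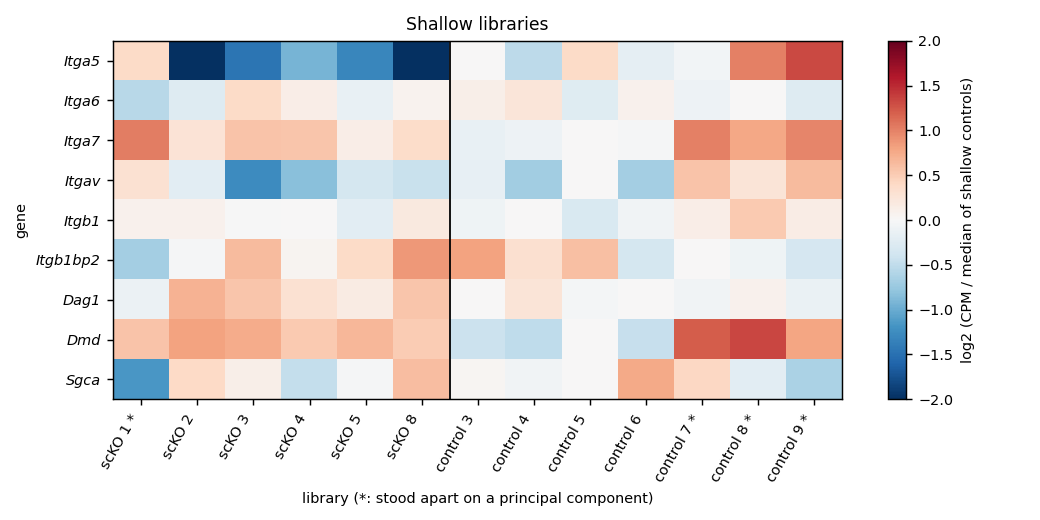
Log2 ratio of each shallow library's CPM to the median of the 7 shallow controls, for 9 of the genes; rows are genes, columns are libraries with scKO left of control, and stars mark scKO 1 and control 7, 8 and 9. The starred libraries are high for Itga7 (2524 to 2995 CPM) whichever their group, and starred controls are high for Dmd.

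Within the shallow class the members varied in ways shared between scKO 1 and 3 of the controls. scKO 1 and control 7, 8 and 9 had 303 to 396 CPM of Itgav, against 106 to 254 CPM in the other 9 shallow libraries, and 62.1 to 98.9 CPM of Itgb1bp2, against 77.1 to 179.6 CPM. After the group mean was taken out, the correlation over the 13 shallow libraries was 0.66 between Itga7 and Itgav, 0.64 between Itga6 and Dag1 and -0.86 between Itga6 and Itgav. These 13 points share depth and the 4 libraries that stood apart, so the values are descriptive. Among 2688 genes with at least 50 counts on average in shallow libraries, those most like Itga7 were Plekhb2 (r = 0.98) and Auts2 (r = 0.97), but over the 5 deep libraries the same pairs had r of -0.73 and -0.40. Dag1 was most like Tspan3 (r = 0.93 in shallow and -0.26 in deep libraries), and Itgb1bp2 most like Tmem62 (r = 0.90 and 0.27).

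Of the other genes of the dystrophin complex, those called in deep libraries were all higher in scKO. Of 15 listed, 12 were tested there, 11 had positive log2 ratios (median 0.41, against -0.0017 and 49.8% positive over all genes tested) and 5 were higher in scKO, with 0 lower. Of these, Sgcb, beta-sarcoglycan, rose with a log2 ratio of 0.34, Cav3, the muscle caveolin, with 0.55, Utrn, which encodes the dystrophin relative utrophin, with 0.53, and Sntb1, a syntrophin that binds dystrophin, with 1.12 (edgeR adjusted p = 0.0183, 0.00169, 0.0118 and 0.00840). Over all genes tested in deep libraries, 7.31% were called higher and 7.03% lower. In shallow libraries 9 of the 15 listed were tested, with 4 positive, a median of -0.01 and 0 calls. There Sntb1 had a log2 ratio of -0.61 (edgeR adjusted p = 0.822). Over all libraries with the depth class, Utrn had 0.40 (edgeR adjusted p = 0.211).

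Of 17 genes of dystroglycan glycosylation, which builds the sugar chain that binds laminin, 1 was called higher in deep libraries, where 7.31% of all genes tested were. In deep libraries 17 of 17 were tested with a median log2 ratio of 0.02, and only Dpm1, a mannose donor synthase subunit, passed (log2 ratio 0.65; edgeR adjusted p = 0.0476). Of 21 other integrin subunits, 13 were tested in deep libraries, with 10 positive and a median of 0.44. Over all genes tested, 49.8% were positive and 7.31% were called higher. Among the positive subunits, Itga1, Itga9, Itga10, Itgam and Itgb2 were scarce, averaging 0.849 to 3.90 CPM in the deep groups. The most abundant subunits, Itgb4 and Itga3, had log2 ratios of -0.37 and -0.18 (edgeR adjusted p = 0.0921 and 0.228). The beta subunits Itgb5 and Itgb6, partners of alpha v, rose with log2 ratios of 0.62 and 0.61 (edgeR adjusted p = 0.0243 and 0.00999). In shallow libraries 2 of 7 tested were positive, with a median of -0.26 and 0 calls, and Itgb6 had -0.55 (edgeR adjusted p = 0.7996; difference between the classes, adjusted p = 0.388).

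Inside the cell, 21 of 24 integrin adaptors were tested in deep libraries, with 6 positive and a median of -0.11, while in shallow libraries 14 of 20 were positive with a median of 0.12. Tgfb1i1, the focal adhesion protein Hic-5, fell with a log2 ratio of -0.67 and Zyx, zyxin, with -0.35, while Fermt2, the integrin activator kindlin-2, rose with 0.46 (edgeR adjusted p = 0.00301, 0.0478 and 0.0115). These were the only adaptors called there, 1 higher and 2 lower. Over all genes tested in deep libraries 14.3% passed, 7.31% higher and 7.03% lower, so the adaptors were called at about the share of all genes. Outside the cell, 16 of 19 matrix ligands were tested in deep libraries, with 9 positive and a median of 0.02, while in shallow libraries 7 of 10 were positive with a median of 0.10. In deep libraries, where 7.03% of all genes were called lower, 0 ligands were called higher and 4 lower. These were Tnc, tenascin-C (log2 ratio -0.84), Fn1, fibronectin (-0.63), Thbs1, thrombospondin 1 (-0.38), and Nid1, nidogen 1 (-0.36), with edgeR adjusted p of 0.00301, 0.0101, 0.0441 and 0.0300. In shallow libraries Fn1 had a log2 ratio of 0.58 (unadjusted p = 0.00940, edgeR adjusted p = 0.721), the opposite sign to the deep value. The sign also differed for Tnc (0.21 in shallow libraries), Thbs1 (0.35) and Fermt2 (-0.41), with edgeR adjusted p of 0.852, 0.822 and 0.822. The difference between the classes passed for none of Fn1, Tnc, Thbs1 and Fermt2 (edgeR adjusted p = 0.409, 0.451, 0.769 and 0.560). Over all libraries with the depth class, Tgfb1i1 had -0.55 and Nid1 -0.46 (edgeR adjusted p = 0.117 and 0.232). None of the genes in these 5 lists passed in shallow libraries or in the model with the depth class.

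**Figure D4:**
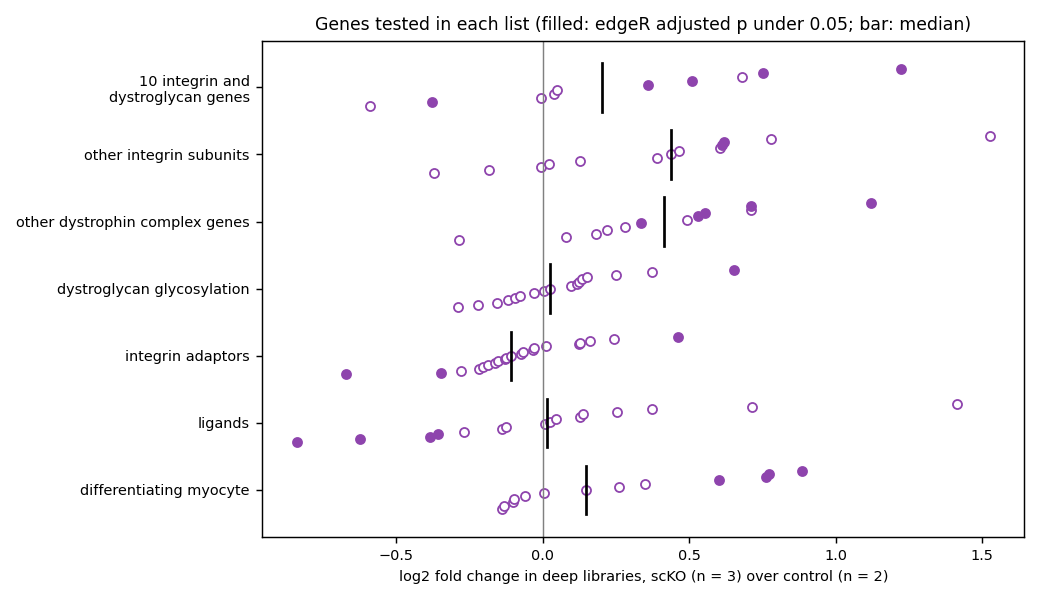
Log2 ratio of every tested gene of each list in deep libraries, 3 scKO over 2 control; filled points passed edgeR at an adjusted p of 0.05 and bars mark medians. The other dystrophin complex genes have 11 of 12 points above 0, and all 4 filled points of the matrix ligands lie below 0. Over all genes tested there, 49.8% had positive log2 ratios and 7.03% were called lower.

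Some differentiation markers were called in the same deep libraries as the dystrophin complex genes, while others were not. Of 13 markers of differentiating myocytes, 4 were higher in deep scKO and 0 lower: Mymx, a fusion peptide, Ckm, muscle creatine kinase, Actn2, a Z-disc actinin, and Myh8, a neonatal myosin whose close relatives make its count less certain, with log2 ratios of 0.76, 0.77, 0.60 and 0.89 (edgeR adjusted p = 0.000974, 0.000743, 0.00117 and 0.000532). The summed level of the 13 was 4792 to 5244 CPM in deep scKO and 4014 to 5510 CPM in deep control. It was 18730 to 27192 CPM in shallow scKO and 16098 to 31398 CPM in shallow control. The count ceiling acts most strongly in deep libraries but can limit the sums of both classes. In deep libraries 8 of the 13 were positive (median 0.15), where 49.8% of all genes tested were positive and 7.31% called higher. The 5 below 0, at -0.059 to -0.14, were Acta1, Myh3, Tnnt3, Tnnc1 and Mylpf, and none of them passed. The ceiling can also limit single ratios. Where counts lie near it, a ratio near 0 cannot show whether a gene differed. In shallow libraries 3 of 13 were positive, with a median of -0.22 and 0 calls. Myf5 and Met, of the myoblast list, were lower in deep scKO (log2 ratio -0.33 each; edgeR adjusted p = 0.0350 and 0.0257). The part of differentiation in the results above was not tested.

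Of 8 marker lists, that of smooth muscle cells and pericytes differed between the groups in summed level, but its genes did not move alike. Its summed level was 313 to 436 CPM in shallow scKO and 253 to 359 CPM in shallow control, and 259 to 292 CPM in deep scKO and 210 to 253 CPM in deep control (exact two-sided permutation within depth classes, p = 0.00221, Benjamini-Hochberg adjusted p = 0.0177). All 6 of its genes held more than 3 counts over all libraries together, and on average Notch3 made up most of the shallow sum. Rgs5, a pericyte marker, had log2 ratios of 0.12 in shallow and -0.14 in deep libraries (edgeR adjusted p = 0.948 and 0.338). Kcnj8 passed the count filter in no model. Abcc9, a potassium channel subunit of pericytes, was higher in deep scKO (69.5 ± 6.996 CPM in scKO and 30.0 ± 2.12 CPM in control; log2 ratio 1.19, edgeR adjusted p = 0.000158) and had a log2 ratio of 0.33 in shallow libraries (edgeR adjusted p = 0.847). Notch3, a Notch receptor, averaged 279 ± 53.7 CPM in shallow scKO and 210.04 ± 43.5 CPM in shallow control (log2 ratio 0.40, edgeR adjusted p = 0.7996), with a log2 ratio of 0.14 in deep libraries (edgeR adjusted p = 0.653). Myh11 was higher in deep scKO, with a log2 ratio of 1.61 (edgeR adjusted p = 0.0166), and Cnn1 had 1.28 (edgeR adjusted p = 0.0501). Myh11 and Cnn1, which define contractile smooth muscle, averaged 2.74 and 3.38 CPM in shallow scKO and 7.68 and 4.19 CPM in shallow control, and 3.52 and 2.81 CPM in deep scKO and 1.11 and 1.17 CPM in deep control. Schwann cell markers summed to 67.6 to 179.6 CPM in shallow scKO and 145 to 296 CPM in shallow control, and to 62.8 to 95.5 CPM in deep scKO and 56.0 to 76.4 CPM in deep control (exact permutation p = 0.0337, adjusted p = 0.135). Endothelial and leukocyte markers summed to at most 54.1 and 17.6 CPM in any library. The same exact permutation test gave p = 0.413 for the endothelial, 0.707 for the leukocyte, 0.542 for the fibro-adipogenic, 0.194 for the tendon, 0.894 for the myoblast and 0.901 for the myocyte list. The count ceiling can limit the myoblast and myocyte sums, which hold abundant genes, so their p-values do not show equal levels. Dpt of the fibro-adipogenic list and Tnmd and Kera of the tendon list were at or under the floor. The part of these cell types in the members' results was not tested.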

How the data were processed

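The authors deposited raw counts of UMIs per gene for 18 libraries in 1 table, per its name. HISAT2, HTSeq and the rat build Rnor_6.0 are named in the submitters' processing notes, without versions, while the identifiers are mouse Ensembl genes, used as deposited. Whether counting used strand is not given in the sources used here. Symbols were paired for 50376 features; the other 313 held 0.041% of counts. Positions, exon lengths and overlaps came from GENCODE M21 (GRCm38). Itga7 shares 9 exon bases with Mettl7b on the other strand and Itgav 634 with Gm13684, which held 2 and 5 counts in all.

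The 10 genes, the lists and the models were chosen with earlier results of these data known. Genes were filtered with filterByExpr, scaled by TMM and tested with the quasi-likelihood test of edgeR 4.0.16 in R 4.3.3, within each depth class and over all libraries with the class as a covariate; SE is the log2 ratio over the square root of F. Named genes are all members, plus list genes called or among the 4 smallest p of a list. Further list genes are named where they limit what a list shows. The values of 1 list gene are not reported here, though the list's counts and median include it. The methods were tested on simulated data. Alternatives were DESeq2 1.42.0, limma-voom (limma 3.58.1), other scaling and filters, counts thinned or corrected for UMI collisions, a replicate block and leaving out libraries. A count of 3 was the floor. Depth limits genes with few counts.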

Additional observations from a re-analysis of the deposited data

Results flagged for a closer look

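Itga5 in scKO 1 stood far from the other 5 shallow scKO libraries, at 12.1 CPM against a next highest value of 4.87 CPM and a lowest of 1.60 CPM. It rests on 8 counts. Of 20 groups of shallow libraries examined for such a gap over the 10 genes, 1 was flagged. How often chance alone would flag a group at such low counts was not measured.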

How the results depend on the processing

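In the deep libraries 5 members were called under DESeq2, limma-voom, median-of-ratios size factors, both count filters and UMI collision correction, and 3 to 4 when a library was left out (against 1 control where that was a control), with 996 to 1810 calls over all genes against 1884. In deep libraries, collision correction called 16.1% of all genes, against 14.3% in the main test. Deep calls over all genes are not given here for DESeq2, limma-voom, median-of-ratios size factors or the count filters. The 5 members called under those settings are therefore not set against a share of all genes. With the depth class, where edgeR called 52 genes and 0 members, calls numbered 359 with no count filter (2 members, Dmd and Itga5), 22 with a stricter filter, 390 by DESeq2 (1 member), 100 by limma-voom (1 member), 1 with the group alone, 6 after thinning, 617 without the 4 libraries that stood apart (2 members), and 11 to 216 (0 to 1 members) when a library was left out. In shallow libraries they numbered 13 with no filter, 6 by DESeq2, 0 without the 4 libraries and 1 to 5 when a library was left out, against 3. The replicate numbers did not pair the libraries (5 of 9 same-number correlations over 0.1, range -0.066 to 0.25; 2 of 9 controls were most like their own number); with the replicate block and depth class there were 14 calls and 0 members. No uncalled log2 ratio near 0 had a settled sign. Itgb1 turned to 0.0012 (depth class), 0.096 (deep) after collision correction, 0.083 (depth class), 0.13 (shallow) and -0.12 (deep minus shallow) without the 4 libraries, and 0.0030 (deep) with no filter. Itga7 turned to -0.093 with the group alone and 0.10 (deep minus shallow) after collision correction, Itga6 in shallow libraries to 0.0068 with no filter and 0.081 with the replicate block, and Dag1 to -0.033 (deep minus shallow) without the 4 libraries. Leaving out a library gave, for Itga7, -0.024 to 0.15 (depth class), -0.053 to 0.19 (shallow), -0.13 to 0.22 (deep) and -0.19 to 0.17 (deep minus shallow), and for Itgb1, -0.064 to 0.042, -0.094 to 0.047, -0.093 to 0.074 and -0.045 to 0.13 in the same order. It gave -0.12 to 0.065 for Itga6 and -0.078 to 0.20 for Itgb1bp2 in shallow libraries, -0.043 to 0.14 for Itgav in deep ones, and -0.081 to 0.096 for Dag1 between classes. The cause of these changes was not tested. Dropping the 4 libraries was chosen after seeing the data. Few counts limit Itga5, Sgca and Sgcd in shallow libraries, and the ceiling of 4096 limits Itga7 and Itgb1 in deep ones.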
